A study of Mus musculus with 27 samples.

Results

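Interferon-stimulated genes are the genes that a cell switches on when it senses an interferon. The 42 considered here are well-known members of that response, taken by name. They were chosen with earlier results of these data known, so their shares beside those of all genes are only descriptions. Of the 42 genes, 38 had a probe set assigned to them alone and were measured, out of 19938 genes tested on the arrays. Isg15, Gbp2 and Igtp were read by a probe set that also carries another gene symbol and were left out, and Ifi44 was not analysed here. In 3T3-L1 cells 33 of the 38 were higher in uninduced cells that carried ISL1 than in uninduced vector cells, and 23 and 24 of them were lower in vector cells 4 and 8 h after a fat-inducing hormone mixture was added.

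Type I interferons bind the receptor made of Ifnar1 and Ifnar2, which activates the kinases Jak1 and Tyk2 and assembles ISGF3, a complex that contains the factors Stat2 and Irf9. ISGF3 and the interferon regulatory factors bind a DNA element, the interferon-stimulated response element (ISRE), in the promoters of genes that encode antiviral effectors, RNA sensors, and the pathway's own factors. Interferon gamma acts through another DNA element, the gamma-activated site (GAS). Many cell types, fibroblasts among them, are known to keep a low tonic activity of the pathway without infection.

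The cells were 3T3-L1 preadipocytes, an established mouse line that can be driven to become fat cells, and they carried either Flag-ISL1, a tagged LIM homeodomain protein, or the empty pMIG vector. Medium with 10% fetal calf serum, 350 nM insulin, 0.5 mM isobutylmethylxanthine (a phosphodiesterase inhibitor), 250 nM dexamethasone, which is a synthetic glucocorticoid, and 400 nM biotin was added 2 days after confluence, and 0 h means just before that. Total RNA was taken from ISL1 cells at 0 and 48 h and from vector cells at 0, 0.5, 1, 2, 4, 8 and 48 h, as 9 groups of 3 arrays that the series calls biological triplicates. The sources used here do not say whether each cell population was a clone or a pool, and all results come from 1 cell line. Values are log2 intensities after RMA (robust multi-array averaging), a change is a log2 difference ± the standard error of the limma fit, and a gene passed the test when its p-value, adjusted by Benjamini and Hochberg over all 19938 genes, was under 0.05. Levels of different genes are not set against each other, since probe sets differ in brightness.

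The construct was checked first through the Isl1 probe set. At 0 h it read 12.64, 12.62 and 12.61 in the ISL1 arrays, against 7.37, 7.47 and 7.17 in the vector arrays. At 48 h it ran against the labels, with 12.79, 12.76 and 12.72 in the arrays labelled vector and 7.48, 8.01 and 7.47 in those labelled ISL1. Both 48 h groups therefore keep their label here with their Isl1 signal beside it, and no array was moved. Isl1 also read 8.59 ± 0.09 at 2 h and 8.02 ± 0.064 at 8 h in vector cells (SD, n = 3). Among markers of other cell types, Lyz2, a lysozyme gene of macrophages, set the groups apart. It averaged 7.21 in ISL1 0 h arrays, and 6.76 and 7.57 in the 48 h arrays labelled vector and labelled ISL1, against 11.39 to 12.05 in the vector groups from 0 to 8 h. The vector 0 to 8 h arrays thus stood apart from the other 3 groups in this gene. The leukocyte marker Ptprc stayed between 6.17 and 6.33 and the macrophage marker Adgre1 between 5.90 and 6.07 in all 9 groups. Some other markers of the macrophage and blood cell list moved. Cd68 averaged 8.31 at vector 0 h and 9.20 at 8 h, and Cd14 averaged 8.32 and 8.68, against 7.87 at ISL1 0 h. Of the 11 measured, 3 were higher and 1 lower at 8 h against 0 h (27.3% and 9.09%), where 24.2% and 21.9% of all genes were. The labels give no scan or extraction batch, so a batch cannot be told apart from the groups.

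Because the ISRE is the element through which the pathway acts, promoters of members described array by array below are printed first, from 250 bases before to 50 bases after the start site, as given by RefSeq for the assembly GRCm38.p6. The arrays' labels name no genome build, and the sequences serve as background to the genes. Capitals mark a match to the ISRE core, GAAANNGAAA, on either strand in the first 6, and a match to the GAS letters, TTCNNNGAA, in Ifi35 and Irf1, in which these ISRE letters were not found.
Ifit3, chr19:34583279-34583578, plus strand: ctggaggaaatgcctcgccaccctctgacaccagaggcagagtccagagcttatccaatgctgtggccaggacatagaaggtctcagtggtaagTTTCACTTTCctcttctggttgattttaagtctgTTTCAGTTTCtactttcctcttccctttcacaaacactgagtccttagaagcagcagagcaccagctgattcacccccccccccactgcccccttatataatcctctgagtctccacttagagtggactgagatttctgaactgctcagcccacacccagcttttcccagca
Trim30d, chr7:104507800-104508099, minus strand: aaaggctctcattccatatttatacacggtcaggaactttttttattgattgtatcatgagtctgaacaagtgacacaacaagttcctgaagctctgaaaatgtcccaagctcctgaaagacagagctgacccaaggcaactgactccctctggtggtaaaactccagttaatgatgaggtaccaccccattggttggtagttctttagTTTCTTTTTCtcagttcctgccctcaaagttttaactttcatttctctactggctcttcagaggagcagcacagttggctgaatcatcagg
Trim30a, chr7:104446076-104446375, minus strand: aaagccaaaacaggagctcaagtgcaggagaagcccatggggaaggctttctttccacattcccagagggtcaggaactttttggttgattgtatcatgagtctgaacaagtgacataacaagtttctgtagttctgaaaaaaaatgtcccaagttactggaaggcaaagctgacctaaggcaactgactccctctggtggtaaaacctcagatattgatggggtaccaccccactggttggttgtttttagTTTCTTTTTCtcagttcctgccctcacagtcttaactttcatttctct
Ddx58, chr4:40239776-40240075, minus strand: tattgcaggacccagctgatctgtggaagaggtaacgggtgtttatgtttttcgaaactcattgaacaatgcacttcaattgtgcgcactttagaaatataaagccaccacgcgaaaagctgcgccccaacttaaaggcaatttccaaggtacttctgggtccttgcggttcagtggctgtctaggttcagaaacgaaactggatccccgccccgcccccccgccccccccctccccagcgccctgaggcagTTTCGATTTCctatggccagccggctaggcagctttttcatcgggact
Stat2, chr10:128270248-128270547, plus strand: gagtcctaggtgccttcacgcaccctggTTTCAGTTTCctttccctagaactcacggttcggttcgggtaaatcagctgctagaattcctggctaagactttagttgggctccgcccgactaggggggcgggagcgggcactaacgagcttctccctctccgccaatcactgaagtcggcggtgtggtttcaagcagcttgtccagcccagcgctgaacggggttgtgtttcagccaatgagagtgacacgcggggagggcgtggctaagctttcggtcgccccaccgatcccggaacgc
Rsad2, chr12:26456403-26456702, minus strand: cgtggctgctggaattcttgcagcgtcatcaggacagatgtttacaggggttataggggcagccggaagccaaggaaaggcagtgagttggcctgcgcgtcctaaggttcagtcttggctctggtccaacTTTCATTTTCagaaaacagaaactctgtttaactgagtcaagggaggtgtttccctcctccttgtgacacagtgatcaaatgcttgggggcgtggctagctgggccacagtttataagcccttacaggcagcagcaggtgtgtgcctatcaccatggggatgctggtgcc
Ifi35, chr11:101448162-101448461, plus strand: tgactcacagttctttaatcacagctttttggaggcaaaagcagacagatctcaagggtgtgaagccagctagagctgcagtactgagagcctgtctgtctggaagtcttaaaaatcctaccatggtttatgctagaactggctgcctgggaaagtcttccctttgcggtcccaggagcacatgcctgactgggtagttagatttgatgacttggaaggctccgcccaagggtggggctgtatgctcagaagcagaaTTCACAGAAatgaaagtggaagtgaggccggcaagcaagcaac
Irf1, chr11:53769764-53770063, plus strand: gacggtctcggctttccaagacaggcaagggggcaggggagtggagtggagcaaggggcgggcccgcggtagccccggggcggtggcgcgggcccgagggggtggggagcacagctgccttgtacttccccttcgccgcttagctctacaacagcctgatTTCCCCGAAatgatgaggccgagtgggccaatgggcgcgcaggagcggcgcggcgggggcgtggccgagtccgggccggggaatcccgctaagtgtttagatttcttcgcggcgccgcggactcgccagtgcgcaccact

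The Ifit3 promoter held 2 ISRE cores, which began 156 and 122 bases before the start site. The core began 222 bases before the start in Stat2, 120 in Rsad2 and 41 in Trim30d. It lay just after the start in Ddx58 and in the printed promoter of Trim30a. RefSeq gave 2 promoters for Trim30a, both with a core, of which 1 is printed. Irf1 also had 2, and the printed 1 held its GAS letters 90 bases before the start. The table had a promoter for 29 of the 38 measured members, 36 promoters in all. An ISRE core was found in 14 of those 36 (38.9%), which belong to 13 genes, against 3.44% of all 32851 promoters of the same length in the table. GAS letters were found in 7 of the 36 (19.4%), against 8.3% of all promoters. A match is a description of the sequence, not a test of binding.

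In vector cells the members' levels fell after the mixture was added, and the number called lower grew at each time from 0.5 to 8 h. In RNA from whole cultures, fewer cells of a type and less RNA per cell cannot be told apart. The median of the 38 members' changes was -0.08 at 0.5 h, -0.05 at 1 h, -0.26 at 2 h, -0.57 at 4 h and -0.63 at 8 h, all against 0 h. The median of all genes tested lay between -0.02 and 0.07 at these times. At 0.5 h, limma called 0 members higher and 0 lower, with 1 higher and 1 lower at an unadjusted p under 0.05, where 0.777% of all genes were called higher and 0.502% lower. At 1 h, 1 member was higher and 4 were lower, where 2.78% of all genes were higher and 4.29% lower. At 2 h, 2 were higher and 17 lower, against backgrounds of 10.9% and 17.5%. At 4 h, 4 were higher and 23 lower, against 17.3% and 22.7%. At 8 h, 2 were higher and 24 lower, against 24.2% and 21.9%. The lower calls at 4 and 8 h were thus well above the background share and the higher calls below it.

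**Figure D1:**
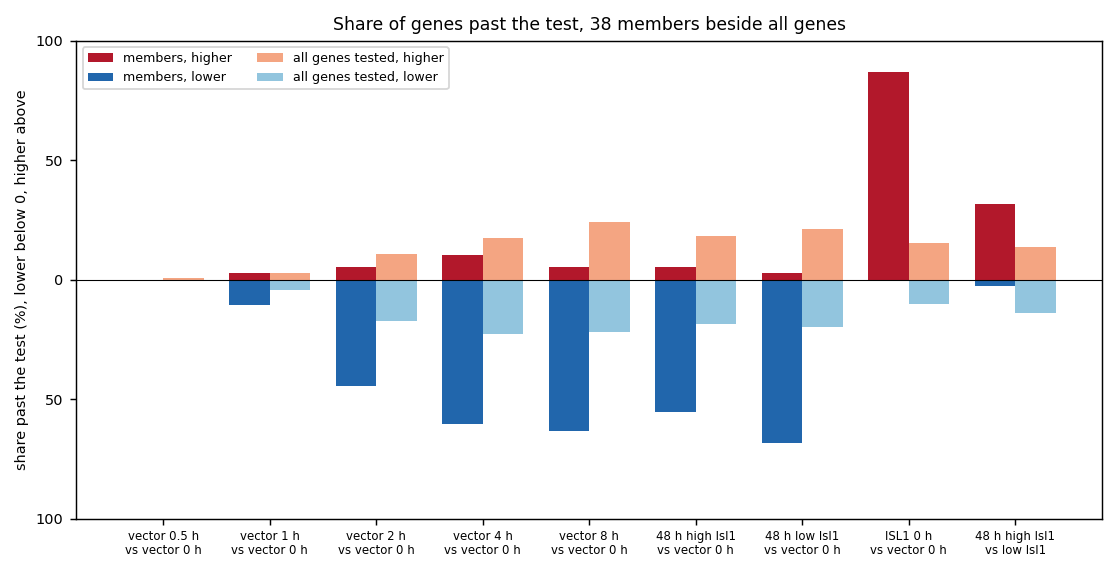
Bars give the percentage of genes past the test (y axis, lower calls drawn below 0 and higher calls above) in 9 comparisons (x axis), dark for the 38 members and light for all 19938 genes. The members' lower bars grow from 1 to 8 h, with 24 of 38 lower at 8 h, and the tallest higher bar is that of ISL1 0 h against vector 0 h, with 33 of 38 higher.

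The same 16 members were lower at 2, 4 and 8 h alike: Ddx58, Ifit2, Ifit3, Irf1, Irf9, Irgm1, Oasl2, Parp9, Parp12, Parp14, Rtp4, Stat2, Tap1, Trim30a, Trim30d and Xaf1. At 4 and 8 h together 21 members were lower. These comparisons share the vector 0 h arrays, and the share of all genes lower at each of these times was not counted. Among the 21, Usp18 and Rtp4 lost their 4 h limma call without vector 4 h replicate 3 (adjusted p = 0.129 and 0.116). Rtp4 also lost it without vector 0 h replicate 1 (adjusted p = 0.0651). For Usp18 the call was also lost without vector 0 h replicate 1, 2 or 3 (adjusted p = 0.0581, 0.0927 and 0.092). The same held without vector 4 h replicate 2 (adjusted p = 0.0854) and after median centring (adjusted p = 0.0682). A change over the 6 times to 8 h passed limma's F test for 28 of the 38 members, against 51.7% of all genes. With the 48 h arrays labelled vector (high Isl1) included it passed for 30, against 56.5%. Read by Isl1 signal, that second count mixes construct with time. Oasl2 and Rtp4 lost their 2 h call when 1 array was left out (adjusted p up to 0.101 without vector 2 h replicate 2 for Oasl2, and 0.0667 without vector 0 h replicate 1 for Rtp4). Between 4 and 8 h, 8 members were lower and Irf1 alone was higher, where 10.2% of all genes were lower and 13.7% higher. Of those 8, Ddx58, Ifit3 and Oasl2 were already lower than 0 h at 4 h, Trim25 and Isg20 had been higher than 0 h at 4 h, and Bst2, Irf7 and Lgals3bp had not passed there.

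The IFIT genes encode proteins that bind foreign RNA and block its translation, and all 3 were lower at 8 h. Ifit3 read 6.52, 6.63 and 6.36 at 8 h, against 10.11, 10.40 and 10.51 at 0 h. It read 8.12, 7.91 and 8.32 at 2 h and 7.16, 7.48 and 7.21 at 4 h, so that the arrays of 2, 4 and 8 h formed 3 steps that did not overlap. The fall at 8 h was -3.84 ± 0.2 (adjusted p = 1.52e-14), the deepest among the members. Ifit2 fell by 2.19 ± 0.153 (adjusted p = 4.48e-12) and Ifit1 by 1.45 ± 0.261 (adjusted p = 3.91e-05). Ifit3 has a close copy, Ifit3b, on the array, and how far their probes cross-read was not tested.

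Among the TRIM genes, which encode ubiquitin ligases, the close copies Trim30a and Trim30d fell and Trim25 rose. Trim30d read 5.82, 5.84 and 5.86 at 8 h, against 9.14, 8.89 and 9.07 at 0 h. Its values were already 5.75, 5.73 and 5.86 at 4 h, after 7.98, 7.53 and 7.97 at 2 h, so that the 4 h and 8 h arrays overlapped and both lay below 2 h. The change at 8 h was -3.19 ± 0.164 (adjusted p = 1.15e-14). Trim30a read 8.32, 8.68 and 8.09 at 8 h, against 10.61, 10.60 and 10.52 at 0 h. It was lower on every 8 h array, by 2.22 ± 0.129 on average (adjusted p = 1.45e-13). Whether probes of Trim30a and Trim30d read each other's transcript was not tested. Trim25, the ligase that activates the sensor RIG-I, went the other way early. It read 10.21, 10.56 and 10.46 at 1 h, 11.27, 11.16 and 11.22 at 2 h, 11.31, 11.34 and 11.37 at 4 h, and 10.76, 10.82 and 10.67 at 8 h, against 9.96, 9.93 and 10.02 at 0 h. Every array from 1 to 8 h lay above every 0 h array. Its rise was 0.44 ± 0.1 at 1 h (adjusted p = 0.00399) and 0.78 ± 0.1 at 8 h (adjusted p = 2.5e-07).

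**Figure D2:**
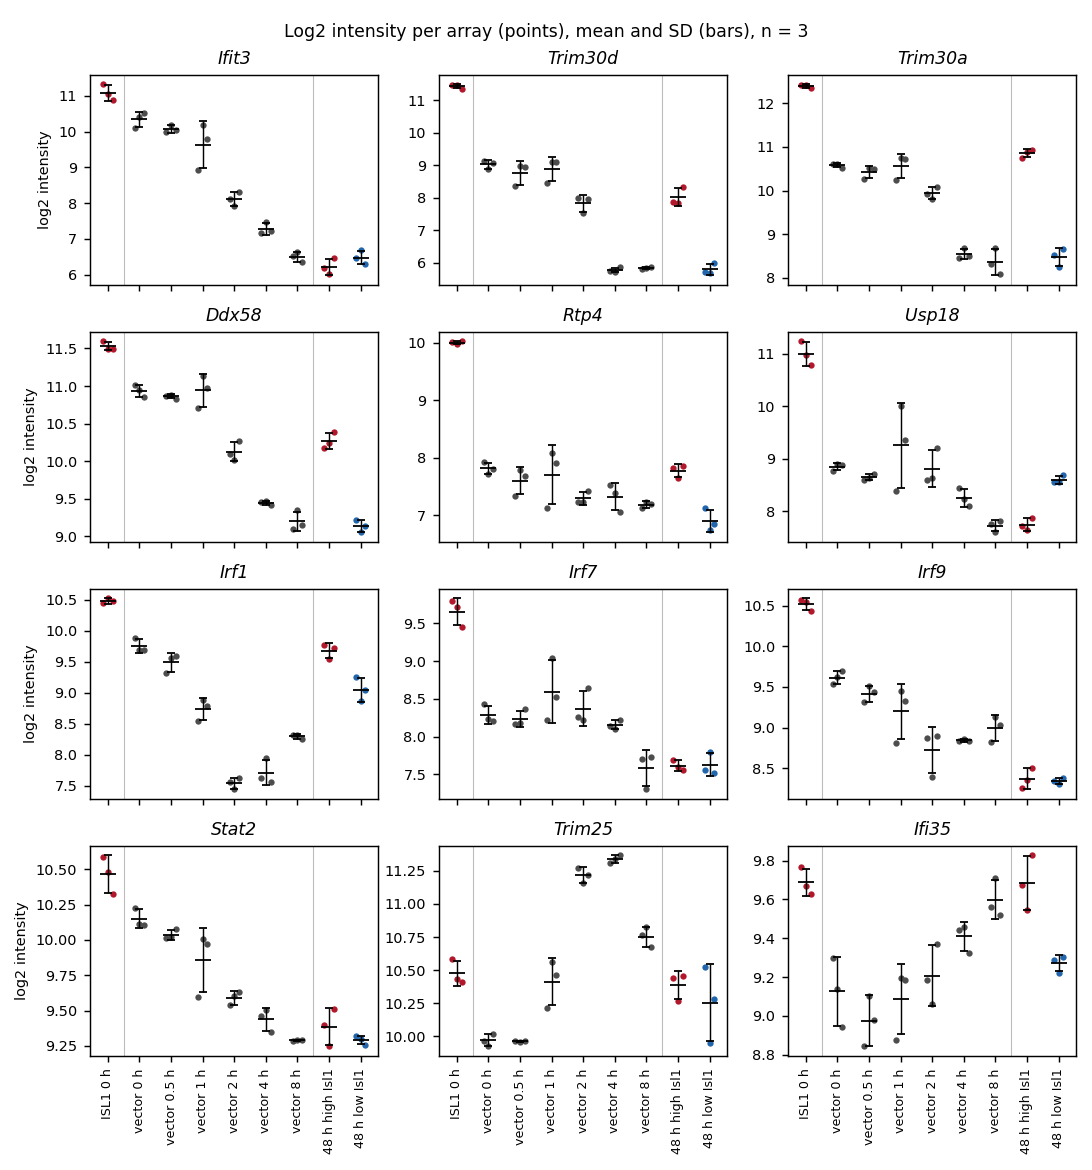
Log2 intensity (y axis) of 12 members on each of the 27 arrays, by group (x axis), with points for arrays and black bars for the mean and SD of 3 arrays. Red points are the groups with high Isl1, blue points the 48 h group with low Isl1 and grey points the vector groups from 0 to 8 h; Ifit3 and Trim30d step down from 2 h, Irf1 dips at 2 and 4 h, and Trim25 peaks at 2 and 4 h.

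The pathway's transcription factors moved at different times. Irf1, which interferon gamma is known to induce, had the largest fall at 1 h. It read 8.54, 8.88 and 8.78 at 1 h, 7.56, 7.45 and 7.62 at 2 h, 7.63, 7.95 and 7.56 at 4 h and 8.33, 8.32 and 8.25 at 8 h, against 9.88, 9.69 and 9.69 at 0 h. Its lowest arrays were those of 2 and 4 h, and the 8 h arrays lay above all of them and below all of 0 h. The change was -1.01 ± 0.106 at 1 h (adjusted p = 8.4e-08), -2.21 ± 0.106 at 2 h (adjusted p = 5.52e-15) and -1.45 ± 0.106 at 8 h (adjusted p = 1.11e-11). These values come from the brighter of 2 Irf1 probe sets. The other read 7.52 at 8 h and 7.66 at 0 h, so the change rests on 1 probe set. Stat2, a subunit of ISGF3, read 9.29, 9.29 and 9.29 at 8 h, against 10.23, 10.11 and 10.11 at 0 h. The groups did not overlap, and the change was -0.86 ± 0.087 (adjusted p = 4.49e-09). Irf9, which gives ISGF3 its DNA binding, read 8.82, 9.13 and 9.04 at 8 h and 8.87, 8.39 and 8.90 at 2 h, against 9.53, 9.62 and 9.70 at 0 h. It was lower on each of these arrays, with a change of -0.62 ± 0.127 at 8 h (adjusted p = 0.000201). Irf7, which amplifies the type I response, read 8.22, 9.05 and 8.52 at 1 h and 7.70, 7.30 and 7.73 at 8 h, against 8.43, 8.24 and 8.20 at 0 h. The 1 h arrays spread over the 0 h range and beyond it, and only the 8 h change passed the test among the times to 8 h, at -0.71 ± 0.15 (adjusted p = 0.00027).

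The 1 h arrays were uneven across the members. The median over the 38 members was 8.44, 9.02 and 8.64 on their 3 arrays, against 8.78, 8.75 and 8.76 at 0 h. Usp18, which removes ISG15 from proteins and blocks the interferon receptor, read 8.39, 10.01 and 9.36 at 1 h, against 8.77, 8.90 and 8.89 at 0 h. Replicate 1 thus lay below the 0 h values and the other 2 arrays above them. Ifit3 read 8.93, 10.19 and 9.80 at 1 h, which overlaps its 0 h arrays (-0.70 ± 0.2, adjusted p = 0.029). The count at 1 h depended on the fit: 3 members passed after median centring of each array, 2 when only the 1 h and 0 h arrays were fitted, and 3, 2 and 2 without the vector 0 h replicate 1, 2 or 3. Without the vector 1 h replicate 1 the calls were 3 higher and 1 lower, in place of 1 higher and 4 lower.

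Of the RNA and DNA sensors, 2 of 4 were lower at 8 h. Ddx58, which encodes RIG-I, read 9.10, 9.35 and 9.16 at 8 h, against 11.01, 10.95 and 10.86 at 0 h. The groups did not overlap, and the change was -1.74 ± 0.088 (adjusted p = 8.62e-15). Ifih1, which encodes the sensor MDA5, changed by -0.82 ± 0.112 (adjusted p = 7.15e-07). Dhx58, which encodes their partner LGP2, and Zbp1, a sensor of Z-form nucleic acid, had changes of -0.25 ± 0.146 and -0.09 ± 0.099 that did not pass.

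The ADP-ribosyltransferase genes Parp9, Parp12 and Parp14 were all lower at 8 h, by -1.16, -1.32 and -0.84 (largest adjusted p = 5.99e-06). Of the GTPase genes, Irgm1, an immunity-related GTPase, fell by 1.66 ± 0.136 (adjusted p = 1.06e-10) and the guanylate-binding gene Gbp3 by 0.80 ± 0.104 (adjusted p = 3.55e-07), whereas Mx1 and Mx2, which trap viral particles, had changes of -0.11 and -0.35 that did not pass. The oligoadenylate synthetases make a messenger that activates RNase L; among their genes and relatives Oasl2 fell by 2.08 ± 0.219 (adjusted p = 1.02e-08), and Oas2, Oas3 and Oasl1 did not pass. Of the antigen processing genes the peptide transporter gene Tap1 was lower, at -0.60 ± 0.077 (adjusted p = 2.49e-07), and the immunoproteasome genes Psmb8 and Psmb9 read 7.05 and 8.69 at 8 h, against 7.05 and 8.59 at 0 h. Usp18 was lower at 8 h, at -1.12 ± 0.227 (adjusted p = 0.00017).

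The remaining 9 effectors split at 8 h, with 5 lower, 1 higher and 3 not past the test. Lower were Xaf1, a promoter of cell death (-1.22), Rtp4, a chaperone of membrane receptors (-0.63), Eif2ak2, the kinase PKR that halts translation (-0.54), the secreted glycoprotein gene Lgals3bp (-0.52) and Bst2, or tetherin, which holds virus at the membrane (-0.48). Their largest adjusted p was 0.00211, that of Rtp4. Ifi35, which encodes a partner of the protein Nmi, read 9.56, 9.71 and 9.52 at 8 h, against 9.30, 9.14 and 8.94 at 0 h. All 8 h arrays were above all 0 h arrays, with a rise of 0.47 ± 0.1 (adjusted p = 0.000285). Isg20, an exonuclease gene, read 10.32, 10.33 and 10.37 at 2 h and 9.63, 9.72 and 9.76 at 8 h, against 9.85, 9.84 and 9.74 at 0 h. It stood above the 0 h arrays at 2 h, where it passed the test, and overlapped them at 8 h. Rsad2, which encodes the antiviral enzyme viperin, read 6.88, 7.09 and 7.03 at 4 h, against 6.67, 6.73 and 6.76 at 0 h, and was among the 4 members called higher at 4 h (adjusted p = 0.0203). That call was lost without vector 0 h replicate 1 (adjusted p = 0.0692) and without vector 4 h replicate 2 or 3 (adjusted p = 0.0968 and 0.0624). At 8 h its change was 0.23 ± 0.097 (adjusted p = 0.0558).

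Among the 13 members with an ISRE core in a promoter of the table, 11 were lower at 8 h, with a median change of -0.86. Among the 16 members whose promoters in the table held none, 9 were lower, with a median of -0.56. The difference between these sets was not tested. Rsad2 and Oas3 have the core in a promoter and were not lower at 8 h.

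**Figure D3:**
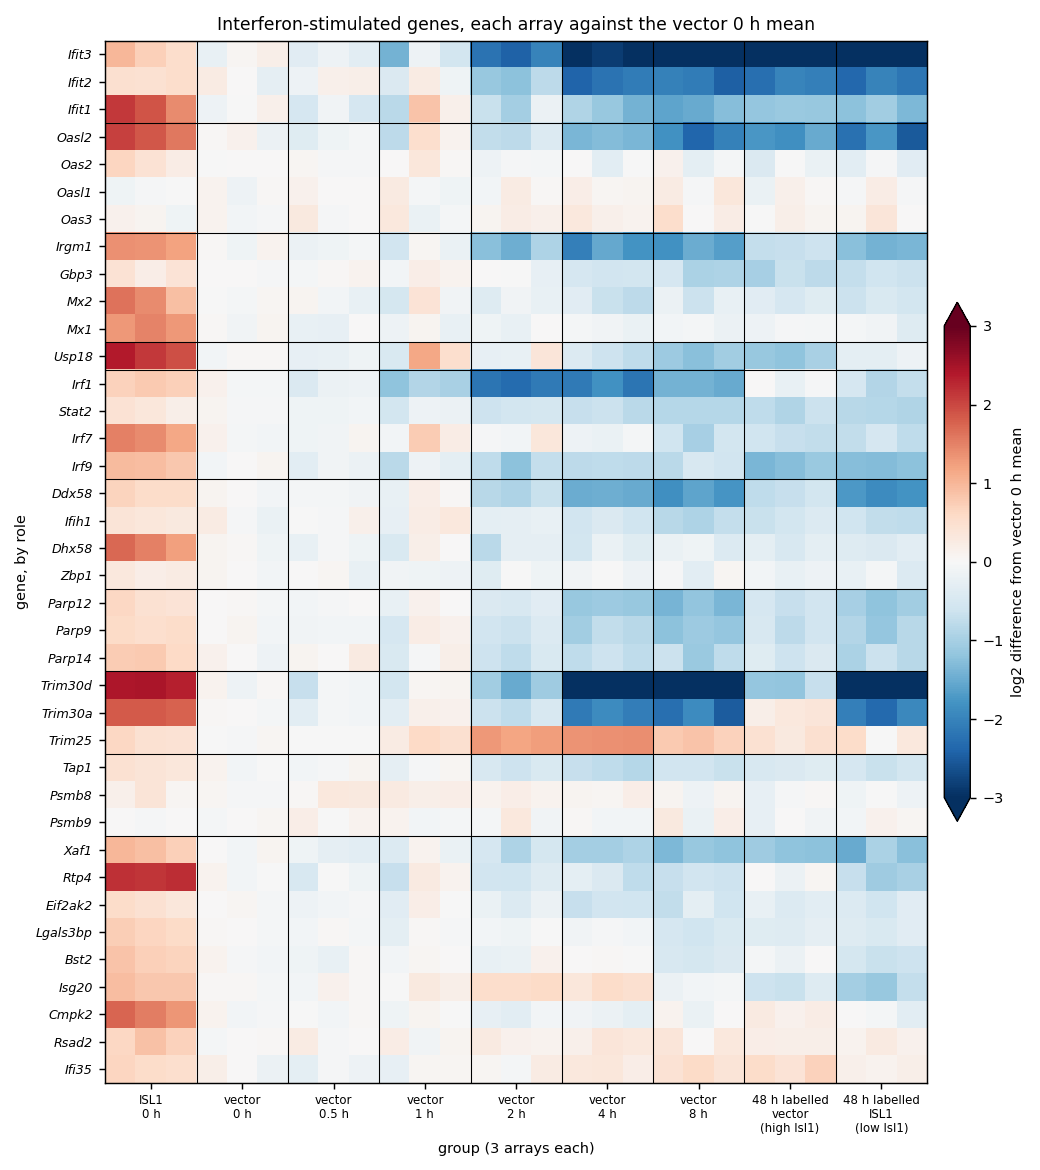
Colour gives the log2 difference of each array (columns, 3 per group) from the vector 0 h mean of the same gene, for the 38 measured members (rows, grouped by role and sorted by their 8 h change), with the colour scale ending at 3 in either direction. The ISL1 0 h columns are the reddest, the 4 h, 8 h and 48 h columns are mostly blue, and Oas3, Oasl1, Psmb8, Psmb9 and Zbp1 stay pale throughout.

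Both 48 h groups were also below vector 0 h. In the 48 h arrays labelled vector (high Isl1), 21 members were lower and 2 higher than at vector 0 h, where 18.7% of all genes were lower and 18.1% higher, with a median change of -0.41 over the members and 0.02 over all genes. In the 48 h arrays labelled ISL1 (low Isl1), 26 members were lower and 1 higher, against 20% and 21.3% of all genes, with medians of -0.66 and 0.06. The 2 comparisons share the vector 0 h arrays. Read by Isl1 signal, the one with the arrays labelled vector (high Isl1) also crosses the constructs. Ifit3 read 6.20, 6.01 and 6.46 in the labelled vector (high Isl1) arrays and 6.47, 6.68 and 6.30 in the labelled ISL1 (low Isl1) arrays, against 10.11, 10.40 and 10.51 at vector 0 h. Both 48 h groups lay about as low as the 8 h arrays and overlapped each other. In all, 19 members were lower at 8 h and in both 48 h groups, all against the same vector 0 h arrays. The share of all genes that did so was not counted. Lyz2 also differed between vector 0 h and both 48 h groups, by -5.30 ± 0.087 in the labelled vector and -4.49 ± 0.087 in the labelled ISL1 arrays, and its part in these results was not tested.

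No ISL1 cells were sampled at 8 h, so, read by Isl1 signal, setting the 48 h arrays labelled vector (high Isl1) against vector 8 h crosses the constructs. Against vector 8 h, 11 members were higher and 3 lower in the arrays labelled vector (high Isl1), where 17.8% of all genes were higher and 18.9% lower. In the arrays labelled ISL1 (low Isl1) 3 were higher and 4 lower, against 15.7% and 14.9%. Bst2, Irf1, Rtp4 and Trim30a were lower than vector 0 h at 8 h and did not pass at 48 h in the labelled vector (high Isl1) arrays, and Usp18 was the one such member in the labelled ISL1 (low Isl1) arrays. Irf1 read 9.77, 9.54 and 9.72 in the labelled vector (high Isl1) arrays, against 8.33, 8.32 and 8.25 at vector 8 h, a difference of 1.38. It read 9.25, 8.86 and 9.04 in the labelled ISL1 (low Isl1) arrays, where it was higher than at vector 8 h and lower than at vector 0 h. These are values of the brighter Irf1 probe set. The other averaged 7.55 in the labelled vector (high Isl1) arrays and 7.49 in the labelled ISL1 (low Isl1) arrays, against 7.52 at vector 8 h.

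Before induction, ISL1 cells had higher levels of nearly all members than vector cells. Of the 38 members, 33 were higher and 0 lower at ISL1 0 h against vector 0 h by limma, with 35 higher and 0 lower at an unadjusted p under 0.05. Among all genes 15.3% were higher and 10.4% lower. The median change was 0.72 over the members and -0.01 over all genes. All 3 ISL1 arrays lay above all 3 vector arrays for 34 members, as they did for 23.5% of all genes. Of the 9 groups, ISL1 0 h had the highest mean for 33 of the 38 members, against 14.6% of all genes.

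The largest differences were in Trim30d, Rtp4 and Usp18. Trim30d read 11.46, 11.47 and 11.35 in ISL1 cells, against 9.14, 8.89 and 9.07 in vector cells. Rtp4 read 10.00, 9.97 and 10.02 in ISL1 cells, against 7.91, 7.72 and 7.80 in vector cells. Usp18 read 11.24, 10.98 and 10.78 in ISL1 cells, against 8.77, 8.90 and 8.89 in vector cells. In each of these genes the ISL1 arrays were higher by far more than the spread within either group. The differences were 2.40 ± 0.164 for Trim30d (adjusted p = 1.23e-11), 2.18 ± 0.162 for Rtp4 (adjusted p = 5.71e-11) and 2.15 ± 0.227 for Usp18 (adjusted p = 3.26e-08). Their folds were 5.28, 4.54 and 4.44.

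All 4 transcription factors were higher in ISL1 cells at 0 h. Irf7 read 9.80, 9.71 and 9.45 in ISL1 cells, against 8.43, 8.24 and 8.20 in vector cells, a difference of 1.36 ± 0.15 (adjusted p = 6.45e-08). Irf9 read 10.58, 10.55 and 10.43, against 9.53, 9.62 and 9.70 in vector cells. Irf1 read 10.44, 10.52 and 10.48 in ISL1 cells, against 9.88, 9.69 and 9.69 in vector cells. The differences were 0.90 ± 0.127 for Irf9 and 0.73 ± 0.106 for Irf1, and for neither gene did the groups overlap. The dimmer Irf1 probe set averaged 7.63 in ISL1 and 7.66 in vector cells, so the Irf1 difference rests on 1 probe set. Stat2 read 10.59, 10.48 and 10.33 in ISL1 cells, against 10.23, 10.11 and 10.11 in vector cells. Its groups were the closest of the 4 and did not overlap (adjusted p = 0.00704).

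The other roles followed with different sizes. All 3 IFIT genes were higher in ISL1 cells, Ifit1 by 1.81 ± 0.261, Ifit3 by 0.74 ± 0.2 and Ifit2 by 0.49 ± 0.153. All 4 GTPase genes were higher, among them Mx1 by 1.36 ± 0.094 and Mx2 by 1.32 ± 0.177, which had not passed at 8 h. Mx1 read 7.46, 7.65 and 7.47 in ISL1 0 h arrays and between 5.78 and 6.25 on all other arrays, so that it stood up in this group alone. All 3 TRIM genes, all 3 PARP genes and all 9 other effectors were higher, among them Cmpk2, a nucleotide kinase gene, by 1.54 ± 0.102 and Isg20 by 0.85 ± 0.094. Of the sensors 3 of 4 were higher, led by Dhx58 at 1.49 ± 0.146, and of the oligoadenylate synthetase family 2 of 4, Oasl2 by 1.84 ± 0.219 and Oas2 by 0.43 ± 0.121. The 5 members that did not pass were Oas3, Oasl1, Psmb8, Psmb9 and Zbp1, whose 9 group means spanned less than 0.5 on the log2 scale. Of these, Oas3, Oasl1 and Psmb9 passed in none of the 15 comparisons. Leaving out ISL1 0 h replicate 1 gave 29 members higher, and Stat2 (adjusted p = 0.0608), Gbp3 (adjusted p = 0.0648), Oas2 (adjusted p = 0.0745) and Ifih1 (adjusted p = 0.0817) were then not past the test. Ifit2 was not past it without ISL1 0 h replicate 3 (adjusted p = 0.0567) or vector 0 h replicate 3 (adjusted p = 0.138).

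Markers of other cell types were set beside this comparison. None of the 11 measured macrophage and other blood cell markers was higher in ISL1 cells, where 15.3% of all genes were. Lower were 2 (18.2%, against 10.4% of all genes), Lyz2 at -4.84 and Cd14 at -0.45. The other 9 did not pass, and the median change over the 11 was -0.08. Array means over the list, which take in the large Lyz2 difference, were 6.97 to 7.12 in ISL1 cells, against 7.54 to 7.60 in vector cells. Ptprc read 6.13, 6.20 and 6.19 in ISL1 cells, against 6.31, 6.29 and 6.32 in vector cells. Of the 8 adipocyte markers 7 were lower in ISL1 cells (87.5%, against 10.4% of all genes). Their list means were 7.84 to 8.02, against 10.23 to 10.39 in vector cells. Adipoq, which encodes adiponectin, read 6.47, 6.60 and 6.62 in ISL1 cells, against 10.94, 10.73 and 10.60 in vector cells. Every vector array was above every ISL1 array for this gene. The 10 fibroblast and preadipocyte markers averaged 12.24 to 12.30 in ISL1 cells and 12.63 to 12.71 in vector cells. The part of the adipocyte markers and of Lyz2 in the members' difference was not tested.

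At 48 h fewer members differed between the groups. Between the arrays labelled vector (high Isl1) and those labelled ISL1 (low Isl1), 12 members were higher and 1 lower, where 13.8% of all genes were higher and 14% lower. The median change was 0.12 over the members. All 12 that were higher, namely Bst2, Cmpk2, Ddx58, Ifi35, Irf1, Irgm1, Isg20, Parp9, Parp12, Rtp4, Trim30a and Trim30d, had also been higher in ISL1 cells at 0 h, where 33 of 38 were. A further 20 members were higher at 0 h and did not pass at 48 h. The share of all genes that did so was not counted. A call lost at 48 h is not itself a test of change, which is given below.

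The largest differences at 48 h were in Trim30a, Trim30d and Ddx58. Trim30a read 10.75, 10.88 and 10.93 in the labelled vector (high Isl1) arrays, against 8.53, 8.25 and 8.65 in the labelled ISL1 (low Isl1) arrays. Trim30d read 7.87, 7.85 and 8.33 in the labelled vector (high Isl1) arrays, against 5.71, 5.69 and 6.01 in the labelled ISL1 (low Isl1) arrays. Ddx58 read 10.18, 10.25 and 10.39 in the labelled vector (high Isl1) arrays, against 9.22, 9.06 and 9.14 in the labelled ISL1 (low Isl1) arrays. None of these 3 genes overlapped between the groups, with differences of 2.38 ± 0.129 for Trim30a (adjusted p = 1.05e-13), 2.21 ± 0.164 for Trim30d (adjusted p = 4.87e-11) and 1.14 ± 0.088 for Ddx58 (adjusted p = 1.14e-10). Rtp4 read 7.81, 7.64 and 7.86 in the labelled vector (high Isl1) arrays, against 7.12, 6.74 and 6.84 in the labelled ISL1 (low Isl1) arrays, a difference of 0.87 ± 0.162 (adjusted p = 0.000125). Irf1 differed by 0.62 ± 0.106 (adjusted p = 4e-05), and Irf7, Irf9 and Stat2 did not pass. The dimmer Irf1 probe set averaged 7.55 in the labelled vector (high Isl1) and 7.49 in the labelled ISL1 (low Isl1) arrays.

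Usp18 ran the other way at 48 h. It read 7.72, 7.64 and 7.87 in the labelled vector (high Isl1) arrays, against 8.55, 8.55 and 8.69 in the labelled ISL1 (low Isl1) arrays. The groups did not overlap, and the difference was -0.85 ± 0.227 (adjusted p = 0.00483). Parp9 was near the threshold, at 0.34 ± 0.128 (adjusted p = 0.0498). Deviations of same-number replicates correlated between these 2 groups, as given under processing, but whether the replicates were matched is not known. With the replicate number as a block Parp9 no longer passed (adjusted p = 0.0526). Without 1 array its adjusted p reached 0.253, when the labelled ISL1 48 h replicate 2 was left out. Cmpk2 lost its 48 h limma call without labelled ISL1 48 h replicate 3 (adjusted p = 0.125) or labelled vector 48 h replicate 1 (adjusted p = 0.0574). The adipocyte markers again moved the opposite way, with 7 of 8 lower (87.5%, against 14% of all genes). Their list means were 9.73 to 9.86 in the labelled vector (high Isl1) arrays, against 11.31 to 11.43 in the labelled ISL1 (low Isl1) arrays. Their part in the result was not tested.

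**Figure D4:**
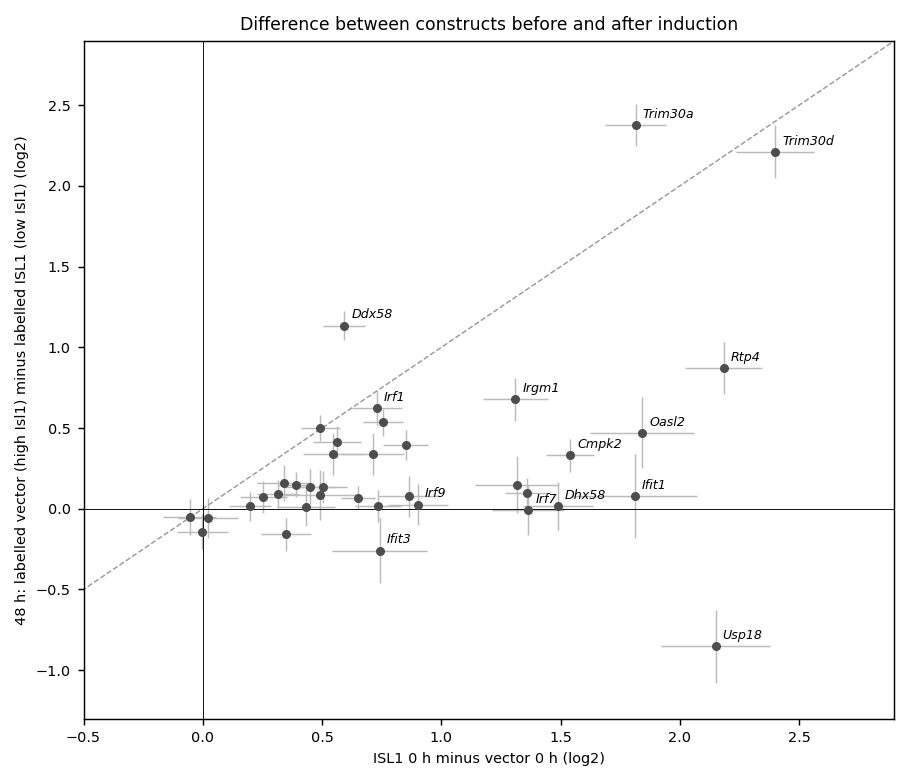
Each point is a member, with its difference between ISL1 and vector at 0 h (x axis, log2) and its difference between the 48 h arrays labelled vector (high Isl1) and labelled ISL1 (low Isl1) (y axis, log2); bars are standard errors and the dashed line marks equal differences. Trim30a, Trim30d and Ddx58 stand highest on the y axis, Usp18 lies below 0, and most other points lie under the dashed line.

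The difference between constructs changed between the times for 19 members, by a test of the difference itself. It was smaller or opposite at 48 h for 17 and larger for Ddx58 and Trim30a, where 13.2% of all genes had a lower and 11.4% a higher difference at 48 h. The change was -3.0 for Usp18, -1.73 for Ifit1 and -1.37 for Irf7, and 0.56 for Trim30a. Against ISL1 0 h, 33 members were lower and 0 higher in the 48 h arrays labelled vector (high Isl1), where 19% of all genes were lower and 14.2% higher. In the 48 h arrays labelled ISL1 (low Isl1), 34 were lower and 0 higher against ISL1 0 h, where 22.2% were lower and 20.9% higher. By limma at an unadjusted p under 0.05 the counts were 33 lower and 0 higher in the first of these comparisons, and 35 lower and 0 higher in the other. The deepest of these were -4.86 for Ifit3 in the labelled vector (high Isl1) arrays and -5.62 for Trim30d in the labelled ISL1 (low Isl1) arrays. Trim30d averaged 5.78 at vector 4 h, 5.84 at vector 8 h and 5.80 in the labelled ISL1 (low Isl1) 48 h arrays. No detection calls were used, so whether these levels lie above background was not tested.

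Genes that act upstream of the members were counted in the same comparisons. Of 14 measured interferon and receptor genes, 2 were higher and 2 lower at 8 h against vector 0 h (14.3% each), below the 24.2% and 21.9% of all genes. Il10rb, a subunit shared by the receptors of interleukin-10 and interferon lambda, changed by -1.85 ± 0.096 and Ifnar2 by -0.49 ± 0.061, whereas the interferon gamma receptor genes Ifngr2 and Ifngr1 changed by 0.48 ± 0.066 and 0.19 ± 0.065. At ISL1 0 h against vector 0 h only Ifngr1 was higher (0.34 ± 0.065) and only Ifnar1 lower (-0.17 ± 0.06). That is 7.14% each, against 15.3% and 10.4% of all genes. No measured interferon gene was among the calls in these 2 comparisons. Of 11 kinases, STATs and interferon regulatory factors outside the members, 4 were higher and 2 lower at 8 h (36.4% and 18.2%). Among them were the kinase genes Jak2 at 0.66 ± 0.094 and Tyk2 at -0.52 ± 0.081. At ISL1 0 h 1 was higher and 2 lower (9.09% and 18.2%), near the 15.3% and 10.4% of all genes.

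Among 18 genes of innate sensing, 3 were higher and 5 lower at 8 h (16.7% and 27.8%), near the 24.2% and 21.9% of all genes. The Toll-like receptor genes Tlr3, which senses double-stranded RNA, and Tlr4 and Tlr2, which sense bacterial lipopolysaccharide and lipoproteins, fell by 2.98 ± 0.092, 2.17 ± 0.154 and 1.46 ± 0.103. Sting1, the adaptor of DNA sensing, fell by 1.42 ± 0.108. The 3 that were higher were the nucleotide hydrolase gene Samhd1 (1.41 ± 0.061), the Toll-like receptor adaptor gene Myd88 (0.88 ± 0.084) and the DNA sensor gene Cgas (0.84 ± 0.093). At ISL1 0 h against vector 0 h, 7 were higher and 2 lower (38.9% and 11.1%, against 15.3% and 10.4% of all genes). Among them were Tlr2 at 1.48 ± 0.103, Tlr7 at 1.16 ± 0.13, Tlr3 at 0.66 ± 0.092 and Tlr4 at -1.39 ± 0.154. Of 14 negative regulators of the pathway 8 were higher and 4 lower at 8 h (57.1% and 28.6%, against 24.2% and 21.9% of all genes). The largest change was that of the ubiquitin ligase gene Rnf125 at 1.49 ± 0.102. The cytokine signalling suppressor genes Cish and Socs3 changed by -0.94 ± 0.086 and 0.81 ± 0.074. At ISL1 0 h 2 of these 14 were higher and 4 lower (14.3% and 28.6%, against 15.3% and 10.4% of all genes), with Tnfaip3, a brake on NF-kB, at 0.82 ± 0.085.

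A further 60 measured interferon-stimulated genes outside the list of members gave 31 lower and 6 higher at 8 h, 51.7% and 10% of them. Of all genes, 21.9% were lower and 24.2% higher there. The largest falls were in Samd9l (-2.84 ± 0.207), the guanylate-binding gene Gbp7 (-2.18 ± 0.144), Ube2l6, the conjugating enzyme for ISG15 (-2.09), and the nuclear body gene Sp100 (-1.83 ± 0.124). At ISL1 0 h, 26 of the 60 were higher and 2 lower, 43.3% and 3.33% of them, against 15.3% and 10.4% of all genes. Among the higher were Slfn9 at 1.49, Ifi27l2a at 1.40 and Oas1b at 1.24. Between the 48 h arrays labelled vector (high Isl1) and labelled ISL1 (low Isl1), 17 were higher and 9 lower (28.3% and 15%, against 13.8% and 14% of all genes), and Cd274, which encodes the immune checkpoint ligand PD-L1, was among the lower at -1.50. Of 14 antigen presentation genes, 9 were lower and 1 higher at 8 h (64.3% and 7.14%, against 21.9% and 24.2% of all genes). At ISL1 0 h 8 were higher and 1 lower (57.1% and 7.14%, against 15.3% and 10.4%), led by the immunoproteasome gene Psmb10 at 0.78.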

How the data were processed

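Total RNA from 3T3-L1 cells was measured on 27 Affymetrix mouse gene arrays, 3 in each of 9 groups taken from the labels. The authors deposited log2 values, made with RMA per the submitters' processing notes, which name no version. No label states the log base: log2 was inferred from the range, 3.35 to 14.85, with 0 values missing. The table was taken as deposited.

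Of 28853 probe sets, 21789 had 1 gene symbol, 1621 several and 5443 none, by the platform's gene table. The first kind was used, with the brightest probe set of a gene (999 genes had several), which left 19938 genes. Limma 3.58.1 in R 4.3.3 fitted 1 mean per group over all arrays, and eBayes moderated the variances (prior df 6.56). The tests of the 15 comparisons were two-sided, an F test covered the vector times, and p-values were adjusted after Benjamini and Hochberg over all genes, with a threshold of 0.05. Simulated data with known changes were used to test the fit.

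The 42 members, their roles, the 6 pathway lists and the markers were chosen with earlier results of these data known. All members were to be named. Array by array came the 3 largest falls and rises at 8 h, in ISL1 cells at 0 h and between the 48 h groups, the 4 transcription factors and the members that moved against the majority. From each pathway list came up to 4 called genes.

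Replicate numbers were checked for pairing by correlating deviations from the group means. All 3 same-number correlations were over 0.1 in 4 of 36 pairs of groups, among them the 48 h groups (0.31, 0.55 and 0.22). In some other pairs all 3 were negative, as in vector 8 h with labelled ISL1 48 h (-0.39, -0.63 and -0.29). The correlations therefore cannot show that replicates were matched. There were 0 identical pairs of arrays. No detection calls were used, and precision is limited by having 3 arrays a group.

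Alternatives were median centring, fitting only the groups compared, a replicate block, a filter at a mean of 6, a trend in the variance prior, the mean of a gene's probe sets and leaving out each array. The interaction with the 48 h labels read as titled was added after seeing the data. Promoters were those of RefSeq GRCm38.p6, 250 bases before to 50 after the start.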

Additional observations from a re-analysis of the deposited data

Results flagged for a closer look

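For 19 members the difference between the constructs at 48 h, arrays labelled vector (high Isl1) minus those labelled ISL1 (low Isl1), was not the same as at 0 h, ISL1 minus vector, by limma's test of the change itself (largest adjusted p = 0.0237). Usp18 had the largest change, -3.0, since its difference was -0.85 at 48 h and 2.15 at 0 h. The antiviral effector genes changed by -1.73 for Ifit1, -1.37 for Oasl2, -1.31 for Rtp4, -1.26 for Mx1, -1.21 for Cmpk2, -1.17 for Mx2 and -1.0 for Ifit3. The regulator and sensor genes changed by -1.47 for Dhx58, -1.37 for Irf7 and -0.88 for Irf9. Smaller changes were -0.79 for Xaf1, -0.72 for Rsad2, -0.63 for Irgm1, -0.58 for Lgals3bp, -0.51 for Gbp3 and -0.46 for Isg20. For 2 members the difference was larger at 48 h, by 0.54 for Ddx58 and 0.56 for Trim30a. These changes hold for the 48 h groups read by their Isl1 signal, since reading them by their labels turns the sign of the 48 h difference.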

How the results depend on the processing

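The counts of members past the test stayed within 1.5 times of those reported under every alternative run in 14 of the 15 comparisons, other than with the 48 h labels as titled. The exception was 1 h against 0 h, with 5 members reported, 3 after median centring, 2 when only the groups compared were fitted and 2 to 5 when 1 array was left out (3 without vector 0 h replicate 1, 2 without its replicate 2 or 3, and 3 higher with 1 lower without vector 1 h replicate 1). With the 48 h labels as titled, an alternative chosen after seeing the data, 30 members had a changed difference between constructs in place of 19, all lower at 48 h, and the direction turned for Ddx58 (-1.73), Parp12 (-0.99) and Trim30a (-4.19). Leaving out 1 array gave 26 to 29 members past the test at 8 h, 29 to 33 for ISL1 0 h, 11 to 14 between the 48 h groups and 18 to 20 for the difference of effects.

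Of the 289 changes of members past the test in all comparisons, median centring lost 9 and fitting only the groups compared lost 7. The replicate block lost 3: Stat2 at 1 h (adjusted p = 0.0508), Lgals3bp in the labelled vector 48 h arrays against 8 h (adjusted p = 0.052) and Parp9 between the 48 h groups (adjusted p = 0.0526). With the block the counts were 26 at 8 h, 33 at ISL1 0 h and 12 between the 48 h groups. Calls that were lost when 1 array was left out include Oasl2, Rtp4 and Dhx58 at 2 h, and Rtp4, Usp18, Dhx58, Rsad2 and Ifi35 at 4 h. At ISL1 0 h they include Ifit2, Oas2, Stat2, Ifih1 and Gbp3, and between the 48 h groups Parp9 and Cmpk2.

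Median centring raised the share of higher genes among all calls to 56% at 1 h (39.3% as reported), 59% at 2 h (38.4%), 61.2% at 4 h (43.3%), 64.8% at 8 h (52.5%), 61.4% in the labelled vector 48 h arrays against vector 0 h (49.2%) and 57.4% in them against ISL1 0 h (42.6%). The median of all genes at 8 h became 0.13 in place of 0.07, and 24 members were lower and 5 higher there in place of 24 and 2, with 5 higher also without vector 8 h replicate 2. In the labelled vector 48 h arrays against vector 0 h it gave 20 lower and 5 higher members in place of 21 and 2. The cause of these shifts was not tested.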

Other observations

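The tested genes outside the members whose profile was most like the median of the members, by Pearson's r over the 27 arrays, were Phf11d (0.972), Specc1 (0.954), Gpr149 (0.952), Ifit3b (0.947), Ptchd1 (0.943) and Rnf213 (0.943). The arrays of a group share a condition, so these values describe likeness and carry no test. Among the members, Oasl2 (0.975) and Xaf1 (0.970) lay closest to the median. Trim25 had an r of -0.38, and Oas3 (-0.40) and Oasl1 (-0.36), whose levels passed the test in none of the 15 comparisons, had weak values that are no finding.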
